A study of Mus musculus with 20 samples.

Results

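Cytosolic ribosomal protein genes encode the proteins of the ribosome that translates nuclear-encoded mRNA. Here they were taken as the protein-coding genes whose GENCODE M21 symbol is *Rplp0*, *Rplp1*, *Rplp2* or *Rpsa*, or is Rpl or Rps followed by a number and at most 1 of the letters a, x, y and l. The rule found 80 genes among 54838 gene rows: 49 of the large subunit (Rpl) and 31 of the small subunit (Rps). RNA from mouse (C57BL/6) crypt cells and intestinal organoids was sequenced in 20 libraries, 12 from sorted tissue cells and 8 from organoids. The tissue cells came from crypts sorted by Lgr5-EGFP, a reporter of crypt stem cells, into an Lgr5-high and an Lgr5-low gate. WT cells, labelled untreated, had 2 libraries in each gate. Cells labelled *Mettl3*-/- came from mice given tamoxifen at 20 mg/ml for 4 days: at day 3 there was 1 library in each gate, at day 4 there were 2 in each gate, and at day 6 there were 2 with no gate in their labels. *Mettl3* encodes the enzyme that writes m6A, a methyl mark on mRNA. Per the protocol, knockout mice carried Mettl3fl/fl, Lgr5-EGFP-IRES-CreERT2 and Villin-CreERT2, so that the Cre was expressed in Lgr5 cells and throughout the intestinal epithelium and was activated by tamoxifen. The protocol also names Mettl3fl/fl mice without Cre that got tamoxifen; whether the WT libraries came from these, and so whether WT tissue had tamoxifen, is not settled by the labels. Knockout and tamoxifen therefore cannot be told apart. Organoids grown from mice of the same 3 alleles had 2 libraries in each of 4 groups: WT, given ethanol for 2 days, and 3 groups labelled *Mettl3*-/-, given 4-OHT for 2 days. One of the 3 had no named factor, one carried retroviral AKF (*Ascl2*, *Klf9* and *Fosb*) and one AKFP (the same with *Purb*), selected with puromycin and expressed on 4-OHT. Live cells were sorted from the organoids, which were grown in ENR medium. Knockout and 4-OHT cannot be told apart in the organoids. The titles of WT and of knockout without factors hold the words m3-flag, which the labels do not explain. Whether a group's libraries are separate animals or cultures is not stated, so p-values measure only the spread between these libraries.

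A ribosome holds 1 copy of nearly every one of these proteins, bound to ribosomal RNA in a large and a small subunit. The exceptions are *Rplp1* and *Rplp2*, which form the flexible stalk on *Rplp0* where translation factors dock. Because the subunits need their proteins in equal numbers, the genes are known to be expressed at high and matched levels, and many of their mRNAs begin with a C followed by a run of pyrimidines (the 5' TOP), through which mTOR signalling and *Larp1* control their translation. In crypts, dividing stem and progenitor cells are known for high ribosome production. Some genes have a second copy with the letter l (for like), such as *Rps27l* beside *Rps27*, and *Rps27l* is known as a target of the tumour suppressor p53.

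The first bases of the mRNA were read from RefSeq promoter records (GRCm38.p6, the patch release of the mm10 build), which matched 60 of the 80 genes with 72 start sites. Each window below runs from 15 bases before the start site to 15 bases from it on, 5' to 3' on the gene's strand, and capitals mark the unbroken run of C or T that begins at the start base. They are shown because they differ in the run at the recorded start, in genes described below that were picked with their values known.
Rps6: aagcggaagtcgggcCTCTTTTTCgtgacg
Rps27: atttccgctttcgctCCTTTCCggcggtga
Rps18: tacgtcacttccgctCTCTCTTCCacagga
Rpl15: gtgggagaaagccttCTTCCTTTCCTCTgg
Rpl35a: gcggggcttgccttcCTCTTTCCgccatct
Rpl38: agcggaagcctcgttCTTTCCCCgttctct
Rps27l: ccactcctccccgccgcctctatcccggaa
Rpl39: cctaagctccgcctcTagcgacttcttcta
The windows lie at chr4:86857353-86857382, minus strand (*Rps6*), chr3:90213634-90213663, minus strand (*Rps27*), chr17:33955651-33955680, minus strand (*Rps18*), chr14:18270972-18271001, minus strand (*Rpl15*), chr16:33056467-33056496, plus strand (*Rpl35a*, the second of its recorded starts), chr11:114668565-114668594, plus strand (*Rpl38*), chr9:66946071-66946100, plus strand (*Rps27l*, the first of its recorded starts) and chrX:37085208-37085237, minus strand (*Rpl39*). *Rps6*, *Rps27*, *Rps18*, *Rpl15*, *Rpl35a* and *Rpl38* had a C and a pyrimidine run at the recorded start, while that start was a purine in *Rps27l* and a single T in *Rpl39*. The *Rps27l* and *Rpl39* windows hold runs of 9 and 8 pyrimidines away from the start base. These 2 genes are therefore not shown to lack a 5' TOP. A start at C with a run of at least 5 pyrimidines was found in 13 of 72 windows (18.1%), against 2.50% of all 32851 recorded starts and 0 of 75 windows of mitochondrial ribosomal protein genes. A run of at least 8 pyrimidines anywhere in the 30 bases was found in 37.5% of the windows and in 12% of all starts, and a run of 8 on the opposite strand in 4.17% and 13.2%. A match describes these letters and shows neither a used start site nor control of the gene.

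Levels are FPKM (a read density: fragments divided by transcript length and by the library's mapped fragments), which can be compared between genes. Of the 80 genes, 77 reached 1 FPKM in all 20 libraries, and 3 paralogs, *Rpl3l*, *Rpl10l* and *Rpl39l*, reached it in none. *Rpl3l*, known from muscle, was listed at no more than 0.0936 FPKM, and *Rpl10l* and *Rpl39l*, known from testis, at 0 in every library. Among the 77, the mean over the 20 libraries ran from 43.5 FPKM (*Rpl21*) to 3060.3 FPKM (*Rplp1*), with a median of 372. The stalk gene *Rplp1* was followed by *Rpl36* at 1705 FPKM, *Rplp0* at 1304, *Rps15* at 1190.5 and *Rpl8* at 1003. The other stalk gene, *Rplp2*, averaged 319 FPKM. *Rpsa*, a small subunit gene also known as the laminin receptor, averaged 610.2, *Rps6*, the S6 kinase substrate, 826, *Rpl22* 109 and *Rps15a*, the lowest after *Rpl21*, 69.9. The listed levels thus ranged over 70.3-fold, although the proteins are needed in nearly equal numbers. The low end of this range is uncertain. In WT Lgr5-high cells *Rpl21* stood at 47.4 and 33.9 FPKM, while its 15 named pseudogenes (near-identical copies) together stood at 384 and 335. The steadiest genes over the 11 group means were *Rpl27*, *Rpl10* and *Rpl19*, with SDs of 0.20, 0.22 and 0.24 on the log2(FPKM + 1) scale, and the least steady were *Rpl29* (1.28) and *Rpl17* (0.94), against a median of 0.34.

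Several values are uncertain because the genes have near-identical copies. Of the 80 genes, 59 have at least 1 pseudogene named after them, and named ribosomal protein pseudogenes held 0.496 to 1.85% of a library's summed FPKM. *Rpl17*, a large subunit protein, stood at 608 and 1073 FPKM in WT cells of the Lgr5-high gate and at 103 and 265 at day 6, while its 11 named pseudogenes together stood at 1038 and 669 in the first group and 680.0 and 425 in the second. In organoids *Rpl17* stood at 1220.0 and 650.1 in WT and 519 and 335 in knockout, but gene and pseudogenes summed to 1825 and 1602 in WT and 1892 and 1603 in knockout. *Rpl17* alone was lower in both knockout libraries while the sum overlapped. *Rpl29* differed between libraries of 1 group, with 329 and 74.1 FPKM in WT Lgr5-high and 189 and 477 with AKFP, and its 3 named pseudogenes reached at most 0.489 FPKM. Of the 80 genes, 25 overlap another annotated gene, 21 of them on the opposite strand, and the counting is not stated to keep strand. Among the genes named here this touches *Rpl3* (*Syngr1*), *Rpl5* (*Fam69a*), *Rpl15* (*Nkiras1*), *Rpl23a* (*Tlcd1*), *Rpl30* (*D730044K07Rik*), *Rpl35a* (*Gm17106*), *Rps18* (*Vps52*), *Rps27a* (*Clhc1*) and *Rps28* (*Kank3*) on the opposite strand and *Rpl13a*, *Rpl19* and *Rpl24* on the same strand.

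Before the comparisons, 2 libraries stood apart. The first day 4 knockout Lgr5-high library lay above the second in all 77 expressed genes, by a median of 0.90 on the log2(FPKM + 1) scale, while over all genes tested the median difference was -0.24. The first day 6 library had 45.6% of its summed FPKM in the Paneth cell defensin genes and *Lyz1*, against 15 to 27.5% in the other tissue libraries, and its summed FPKM was 763177 against 456654 to 607817. The column header of that library names a low gate, which its labels do not. *Mettl3* stood between 2.75 and 4.99 FPKM over the 20 libraries, knockout and WT alike, and a value per gene does not check the deletion of an exon. The sort was visible in its markers: 7 crypt stem cell markers (*Lgr5*, *Ascl2*, *Olfm4* and others) summed to 3182 to 3378 FPKM in WT Lgr5-high and 581 to 649.7 in WT Lgr5-low. Immune markers summed to at most 32.6 FPKM and stromal and endothelial markers to at most 25.5 in any library.

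Together the 80 genes held 3.48 to 9.52% of the summed FPKM of the tissue libraries and 8.55 to 11.2% of the organoid libraries. The share was 7.87 and 9.47% in WT Lgr5-high and 6.21 and 6.23% in WT Lgr5-low, so both Lgr5-high libraries lay above both Lgr5-low libraries. At day 3 of knockout it was 8.86% in the Lgr5-high and 5.92% in the Lgr5-low library. At day 4 it was 9.52 and 6.51% in Lgr5-high, straddling WT, and 5.14 and 3.73% in Lgr5-low, below both WT libraries of the gate. At day 6 it was 3.48 and 4.61%, below all 4 WT libraries. In organoids it was 11.2 and 10.1% in WT, 10.2 and 9.45% in knockout, 9.70 and 9.44% with AKF and 8.99 and 8.55% with AKFP, where both libraries lay below those of the other 3 groups. In bulk RNA, fewer cells with much ribosomal protein mRNA and less of it per cell cannot be told apart.

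**Figure D1:**
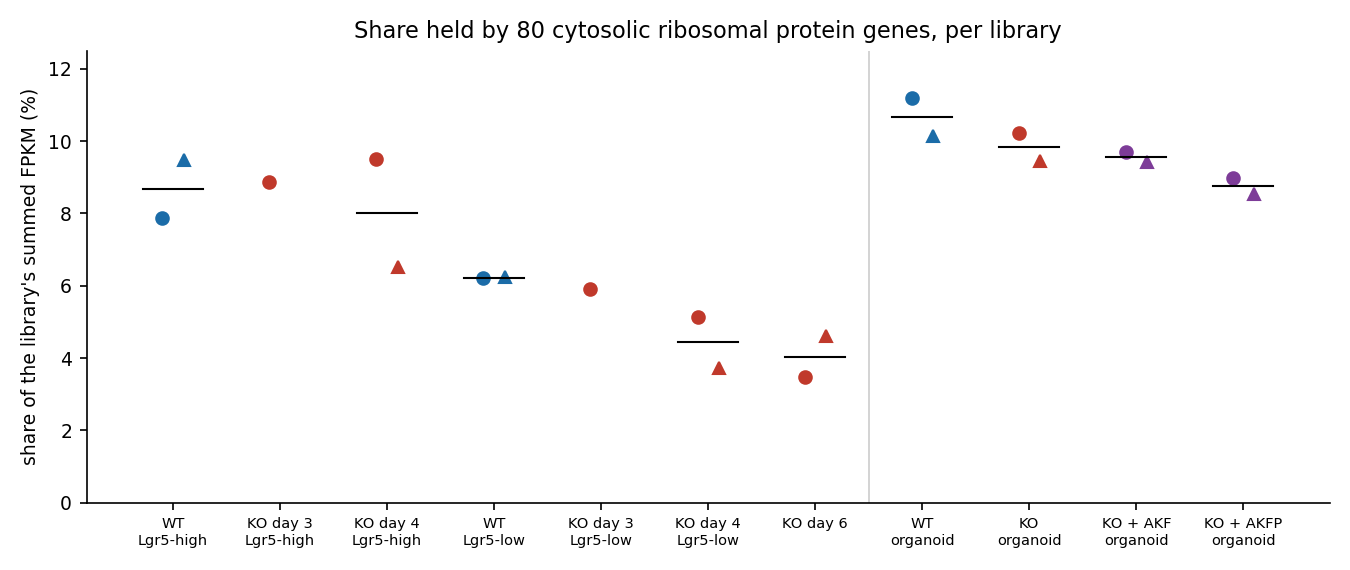
Share of the summed FPKM of all gene rows held by the 80 ribosomal protein genes (y axis, percent), per library and group (x axis). Circles are first and triangles second libraries, black lines are means of 2, blue is WT, red knockout and purple knockout with AKF or AKFP. The day 6 libraries sit at 3.48 and 4.61%, below all 4 WT tissue libraries, and the AKFP libraries are the lowest of the organoids.

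The balance of the 2 subunits varied little: large subunit genes held 1.57 to 1.75 times the summed FPKM of small subunit genes over the 20 libraries. With the defensin genes and *Lyz1* left out of the sum, the share was 6.41 and 6.30% at day 6, 10.2 and 11.4% in WT Lgr5-high and 7.58 and 7.90% in WT Lgr5-low, and the day 6 libraries were still below all 4. A row annotated as the miRNA gene *Gm23935* held 4.02 to 4.62% of the sum in knockout and AKF organoids and 0.581 to 0.825% in WT and AKFP organoids. Without that row the share was 11.3 and 10.2% in WT, 10.7 and 9.90% in knockout, 10.2 and 9.83% with AKF and 9.07 and 8.60% with AKFP, and the AKFP libraries were still the lowest.

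In WT crypts, most ribosomal protein genes had higher values in Lgr5-high than in Lgr5-low cells, although no single gene passed the test. The median difference of the 77 genes was 0.39 on the log2(FPKM + 1) scale, on which all differences below are given, against 0.10 for all 12899 genes tested. The fitted difference was above 0 in 75 of the 77 genes, and in 56 both Lgr5-high libraries lay above both Lgr5-low libraries, which held for 40.1% of all genes. Large and small subunit genes had medians of 0.38 and 0.39. *Rps6*, for example, stood at 910.1 and 1054 FPKM in Lgr5-high and 728 and 695 in Lgr5-low cells, with no overlap, and *Rpl3*, which lies at the peptidyl transferase centre, at 470.4 and 487 in the first gate and 348 and 323 in the second, also without overlap. The smallest p-values belonged to *Rpl7a* (difference 0.87, SE 0.39, adjusted p = 0.382) and *Rpl17* (0.91, SE 0.44, adjusted p = 0.417), which did not pass the limma test. *Rps27l* and *Rps27a* (-0.03), named after its value was seen, lay below 0. The *Rps27a* value is uncertain, because gene and 2 named pseudogenes together were higher in Lgr5-high cells. They summed to 438 and 574 FPKM there and 361 and 276 in Lgr5-low cells, without overlap. *Rps27l* stood at 152 and 174 FPKM in Lgr5-high and 165 and 167 in Lgr5-low cells. By limma 0 of 77 genes were called, where 1.2% of all genes were, and 0 had an unadjusted p under 0.05 (13.6% of all genes). Enterocyte markers summed to 408 to 475 FPKM in Lgr5-high and 2142 to 4149 in Lgr5-low cells, and goblet cell markers to 1850.1 to 2275 and 5115 to 5664, with every listed gene above 0. Their part in the difference was not tested.

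**Figure D2:**
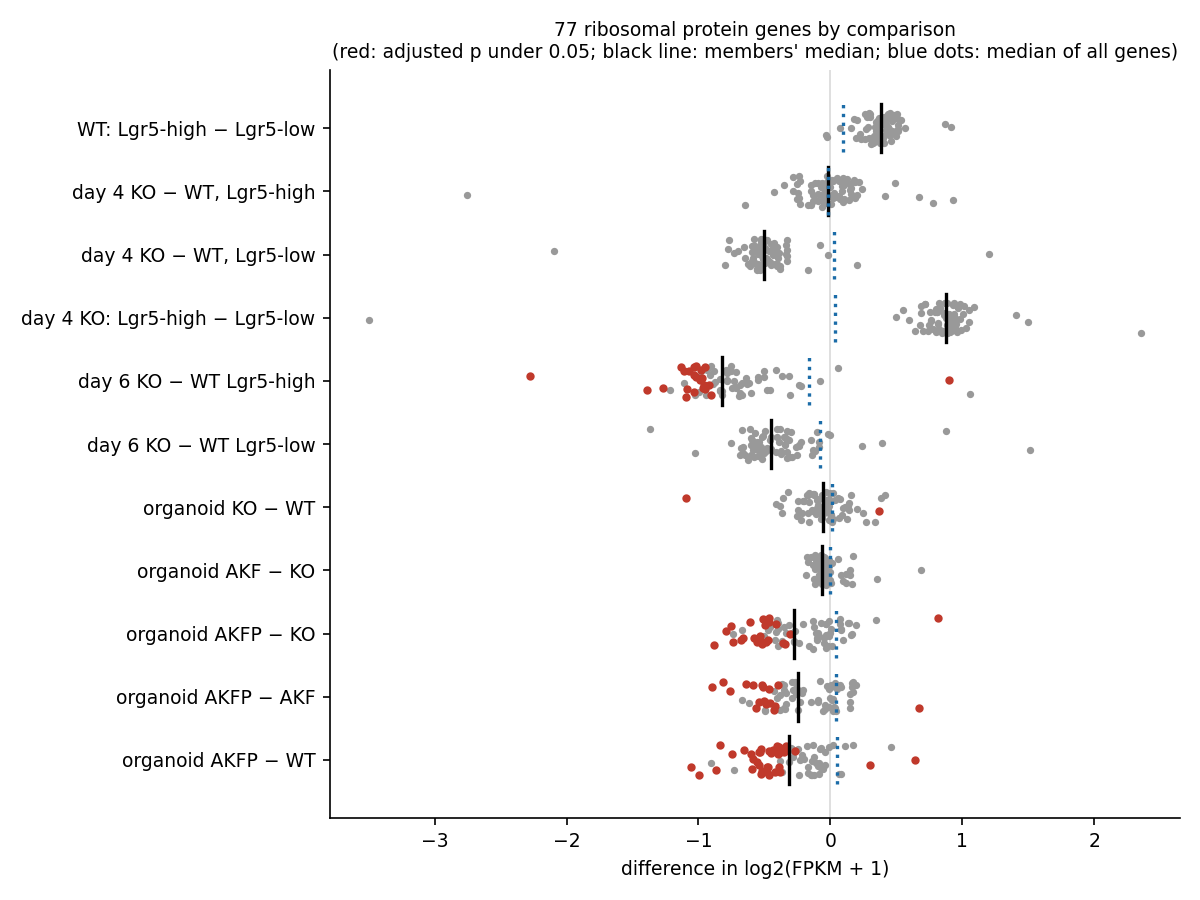
Fitted difference in log2(FPKM + 1) (x axis) of the 77 expressed ribosomal protein genes, 1 point per gene, in 11 comparisons (y axis). Red points passed limma at an adjusted p under 0.05, black lines are the median of the 77 genes and dotted blue lines that of all genes tested. Of the 77 points, 75 lie to the right of 0 for WT Lgr5-high against WT Lgr5-low, and 74 to the left for day 6 against WT Lgr5-high. For AKFP 69 lie to the left against WT, 63 against knockout and 55 against AKF.

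At day 3 of knockout the medians of the family lay near 0 in both gates. The Lgr5-high library differed from the mean of its WT libraries by a median of -0.06 over the 77 genes and the Lgr5-low library by -0.05, against 0.05 and 0.04 over all genes tested. In the Lgr5-high library 29 of 77 genes lay below both WT libraries and 8 above both, and in the Lgr5-low library 34 and 15. Of all genes, 30.1% lay below and 43.4% above both in the first gate, and 30.4% and 42% in the second. With 1 library a gate these differences have no replicate check. *Rps27l* stood at 213 FPKM in the Lgr5-high and 208 in the Lgr5-low library, above both WT libraries of its gate in each case.

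At day 4 most of the family lay below WT in the Lgr5-low gate, with no single gene passing the test. In Lgr5-low cells 75 of the 77 fitted differences from WT were below 0, with a median of -0.50 against 0.03 for all genes. The median was -0.31 without the second and -0.69 without the first knockout Lgr5-low library. In 65 of the 77 genes both knockout libraries lay below both WT libraries, which held for 24.3% of all genes. *Rps6* was at 728 and 695 FPKM in the WT libraries and at 576 and 462 in knockout Lgr5-low cells, and *Rps4x*, the X-linked small subunit gene, at 662 and 617 in WT and 503 and 347 in knockout, both without overlap. The small subunit gene *Rps13* was at 133 and 143 FPKM in WT and at 85.8 and 83.5 in knockout (difference -0.70, SE 0.25, adjusted p = 0.265), and *Rpl17* differed by -2.09 (SE 0.44, adjusted p = 0.0924). These 2 had the smallest p-values and did not pass: limma called 0 of 77 genes, where 0.473% of all genes were called, and 2 had an unadjusted p under 0.05 (13.7% of all genes). Enterocyte markers summed to 2113 to 6397 FPKM in these knockout libraries and 2142 to 4149 in WT, and goblet cell markers to 7625 to 11917 in knockout and 5115 to 5664 in WT, with all 8 and all 7 listed genes at 1 FPKM or more. The part of either in the result was not tested.

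In Lgr5-high cells at day 4 the median difference from WT was -0.02, equal to that of all genes (-0.02), with 37 genes above and 40 below 0. This median rested on 2 knockout libraries on opposite sides: without the first it was -0.47 and without the second 0.46. *Rps6* stood at 1221 and 731 FPKM in these libraries and 910.1 and 1054 in WT. *Rpl29* (329 and 74.1 FPKM in WT cells, 26 and 19.2 in knockout) and *Rps27l* (152 and 174 in WT, 361 and 217 in knockout) had the smallest p-values, with differences of -2.75 (SE 0.64, adjusted p = 0.0852) and 0.78 (SE 0.26, adjusted p = 0.185), and did not pass limma. Again 0 of 77 genes were called, where 1.05% of all genes were, and 2 had an unadjusted p under 0.05 (16.9% of all genes). Calls in fits with 1 day 4 library left out are not given, because the lone library shows no spread of its own. Between the gates of the day 4 knockout, the 77 genes had a median difference of 0.88 toward Lgr5-high, against 0.04 for all genes, and in 64 both Lgr5-high libraries were above both Lgr5-low libraries (26.3% of all genes). The median was 0.41 without the first and 1.32 without the second knockout Lgr5-high library. Limma called 0 of them with all libraries (0.0% of all genes), although 60 had an unadjusted p under 0.05 (18.7% of all genes). The test of the gates' difference in knockout change called 0 of 77 genes (0.0155% of all genes, where 2 of the 77 and 1.73% of all genes had an unadjusted p under 0.05). The median of that difference was 0.49, and it was 0.043 without the first knockout Lgr5-high library. The smallest p-values belonged to *Rpl29* (-3.50, SE 0.64, adjusted p = 0.0930) and *Rpl17* (2.36, SE 0.44, adjusted p = 0.0970) between the knockout gates and to *Rpl29* (-3.95, SE 0.90, adjusted p = 0.963) and *Rpl17* (1.44, SE 0.62, adjusted p = 0.963) in the test of the difference, and none of these passed.

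By day 6 ribosomal protein mRNA was lower than in WT Lgr5-high cells. The day 6 libraries have no gate in their labels, so knockout and gate cannot be told apart in comparisons with either WT gate. Limma called 22 of the 77 genes lower, where 11.9% of all genes were, and 1 higher, where 10.1% were. The median difference was -0.82, against -0.16 for all genes, and 70 genes had both day 6 libraries below both WT libraries (41.7% of all genes). Both subunits were represented, with 12 of 46 large subunit genes and 10 of 31 small subunit genes called lower and medians of -0.83 and -0.82. Among the large subunit genes, *Rpl3* fell from 470.4 and 487 to 189.9 and 207 FPKM, a difference of -1.27 (SE 0.27, adjusted p = 0.0138). *Rpl17* fell by 2.28 (SE 0.44, adjusted p = 0.00909), and the sum of gene and pseudogenes differed by -1.20. Among the small subunit genes, *Rps27*, which holds a zinc finger, fell from 609.5 and 767 to 237 and 284 FPKM (-1.39, SE 0.41, adjusted p = 0.0427) and *Rps7* from 553 and 550.0 to 258 and 244 (-1.13, SE 0.30, adjusted p = 0.0286). *Rps6* fell from 910.1 and 1054 to 508 and 498 (-0.96, SE 0.29, adjusted p = 0.0456). In each of these 5 genes both day 6 libraries were below both WT libraries. The calls of *Rps27*, *Rps7* and *Rps6* were lost under each omission of 1 library and with median-of-ratios scaling (limma adjusted p = 0.0863, 0.0798 and 0.133).

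The other 17 genes called lower at day 6 against WT Lgr5-high differed by -1.11 to -0.91. They included *Rps18*, *Rps26*, *Rps19*, *Rps20*, *Rps3* and *Rps13* of the small subunit and *Rpl23a*, *Rpl4*, *Rpl36a*, *Rpl5*, *Rpl30*, *Rpl9*, *Rpl15*, *Rpl13a*, *Rpl24* and *Rpl27a* of the large subunit. Some are given for their known roles, chosen after their values were seen. *Rpl5*, which carries the 5S rRNA into the ribosome together with *Rpl11* and with it can bind the p53 regulator Mdm2, fell from 309 and 317 to 161 and 153 FPKM (-0.99, SE 0.29, adjusted p = 0.0426). Its partner *Rpl11* stood at 249.7 and 291 in WT and 181 and 166 at day 6 and was not called (-0.63, SE 0.28, adjusted p = 0.138). *Rpl23a*, which lies at the mouth of the exit tunnel, fell from 871 and 1052 to 429.9 and 466 (-1.10, SE 0.24, adjusted p = 0.0140). *Rpl4*, which also reaches into that tunnel, fell from 1114 and 1236 to 520.0 and 585 (-1.09, SE 0.26, adjusted p = 0.0208). *Rps3*, at the site where mRNA enters the small subunit, fell from 386 and 417 to 193 and 201 (-1.02, SE 0.26, adjusted p = 0.0245). In these 4 called genes and in *Rpl11* the day 6 libraries lay below both WT libraries. In WT Lgr5-low cells the same genes stood at 241 and 223 FPKM (*Rpl5*), 698 and 729 (*Rpl23a*), 858 and 819 (*Rpl4*) and 302 and 290.0 (*Rps3*).

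Of the stalk genes and *Rpsa*, none was called. *Rplp0* stood at 1377 and 962 FPKM in WT Lgr5-high and 1308 and 1094 at day 6, with overlap and a difference of 0.06 (SE 0.44, adjusted p = 0.937), which was -0.20 without the second WT library. *Rplp1* differed by -0.55 (SE 0.43, adjusted p = 0.383), *Rplp2* by -0.72 (SE 0.36, adjusted p = 0.176) and *Rpsa* by -0.48 (SE 0.44, adjusted p = 0.449), and none of these passed limma, nor did *Rps4x* (-0.91, SE 0.36, adjusted p = 0.10) or *Rpl22* (-1.0, SE 0.38, adjusted p = 0.0886). Whether the stalk genes differ from the rest of the family was not tested. The counts rest on few libraries: limma called 0 genes without the first day 6 library or without the second WT Lgr5-high library. It called 4 without the second day 6 library (*Rpl3*, *Rpl4*, *Rpl17* and *Rpl23a*) and 4 without the first WT library (*Rpl7a*, *Rpl15* and *Rpl17* lower and *Rpl29* higher). The median stayed between -0.92 and -0.70 in these fits. Scaling moved the median of all genes by -0.30 (equal FPKM sums) and 0.14 (median-of-ratios), and the count of called genes to 52 lower with equal sums and to 1 higher and 3 lower with median-of-ratios scaling, while the family's median less that of all genes was -0.66 as deposited, -0.75 and -0.62. Of all genes, 513 were called higher and 1297 lower with equal sums (12996 tested). With median-of-ratios scaling these were 1723 and 1346 (12874 tested). Crypt stem cell markers summed to 126 to 469 FPKM at day 6 against 3182 to 3378 in WT Lgr5-high, goblet cell markers to 8138 to 9804 against 1850.1 to 2275, and Paneth cell markers to 72160.4 to 177995 against 40795 to 56016. Every listed gene of the 3 cell types was above 0 in both groups. Their part in the fall was not tested.

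**Figure D3:**
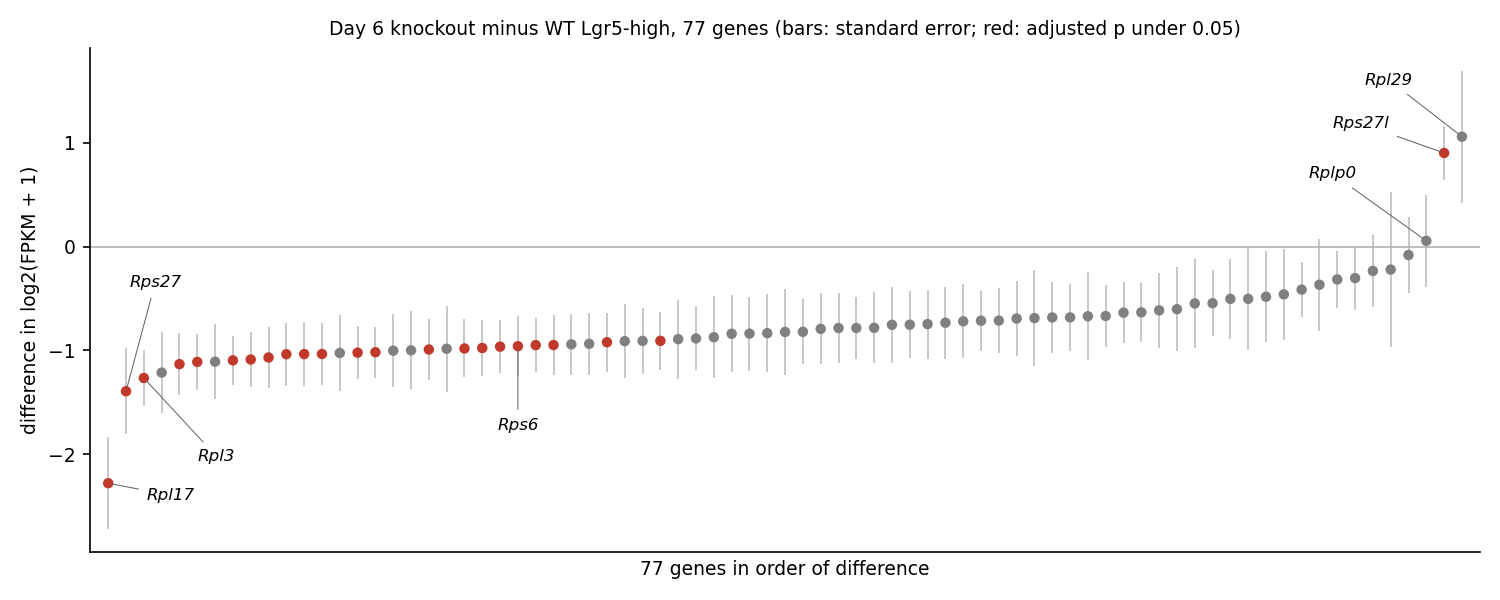
Fitted difference in log2(FPKM + 1) between the day 6 knockout and WT Lgr5-high libraries (y axis) for each of 77 ribosomal protein genes, ordered by difference (x axis). Bars are standard errors, 7 genes are named, and red points passed limma at an adjusted p under 0.05. Of the 77 genes 74 lie below 0, *Rpl17* lies lowest at -2.28, and *Rps27l* (0.90) and *Rpl29* (1.06, not called) lie highest. Without the second WT library the *Rpl29* difference was -0.01.

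Against WT Lgr5-low cells the median difference at day 6 was -0.45 (-0.08 for all genes), and 58 of the 77 genes had both day 6 libraries below both WT Lgr5-low libraries (32.8% of all genes). Limma called 0 of 77, where 11.5% of all genes were called, and 10 had an unadjusted p under 0.05 (26.9% of all genes). The smallest p-values belonged to *Rps27l* (0.87, SE 0.26, adjusted p = 0.0661) and *Rpl17* (-1.37, SE 0.44, adjusted p = 0.0831). The comparisons with the 2 WT gates share the day 6 libraries. Over both gates, 58 of 77 genes lay below all 4 WT libraries at day 6, as did 26.2% of all genes tested, and 1, *Rps27l*, lay above all 4, as did 19.3% of all genes.

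*Rps27l* was the gene called higher at day 6, while its paralog *Rps27* was called lower. *Rps27l* stood at 152 and 174 FPKM in WT Lgr5-high cells, 165 and 167 in WT Lgr5-low, 361 and 217 in day 4 knockout Lgr5-high, 191 and 191 in day 4 knockout Lgr5-low and 335 and 278 at day 6. Every tissue knockout library, the 2 of day 3 included, lay above the 4 WT libraries. Against WT Lgr5-high the day 6 difference was 0.90 (SE 0.26, adjusted p = 0.0394), and the call was lost when any 1 of the 4 libraries was left out (adjusted p 0.0634 to 0.194), with equal FPKM sums (0.52, adjusted p = 0.216) and without a filter on low values (adjusted p = 0.0796). *Rps27* stood at 439.9 and 640.0 FPKM in WT Lgr5-low, 791 and 325 in day 4 knockout Lgr5-high and 362 and 264 in day 4 knockout Lgr5-low. The ratio of *Rps27l* to *Rps27*, in which a common scale of the library cancels, was 0.250 and 0.227 in WT Lgr5-high and 0.375 and 0.261 in WT Lgr5-low. It was 0.335 and 0.466 in the Lgr5-high and the Lgr5-low library of day 3, 0.456 and 0.668 in Lgr5-high and 0.527 and 0.725 in Lgr5-low at day 4, and 1.41 and 0.978 at day 6. The day 4 and day 6 libraries lay above all 4 WT libraries and the day 6 libraries above all others. In the 8 organoid libraries the ratio lay between 0.377 and 0.468. It was 0.377 and 0.405 in WT, 0.438 and 0.440 in knockout, 0.380 and 0.390 with AKF and 0.423 and 0.468 with AKFP. The knockout and AKFP libraries thus lay above both WT organoid libraries, and the AKF libraries lay between the WT libraries. The ratio was chosen after its values were seen and is given without a test.

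**Figure D4:**
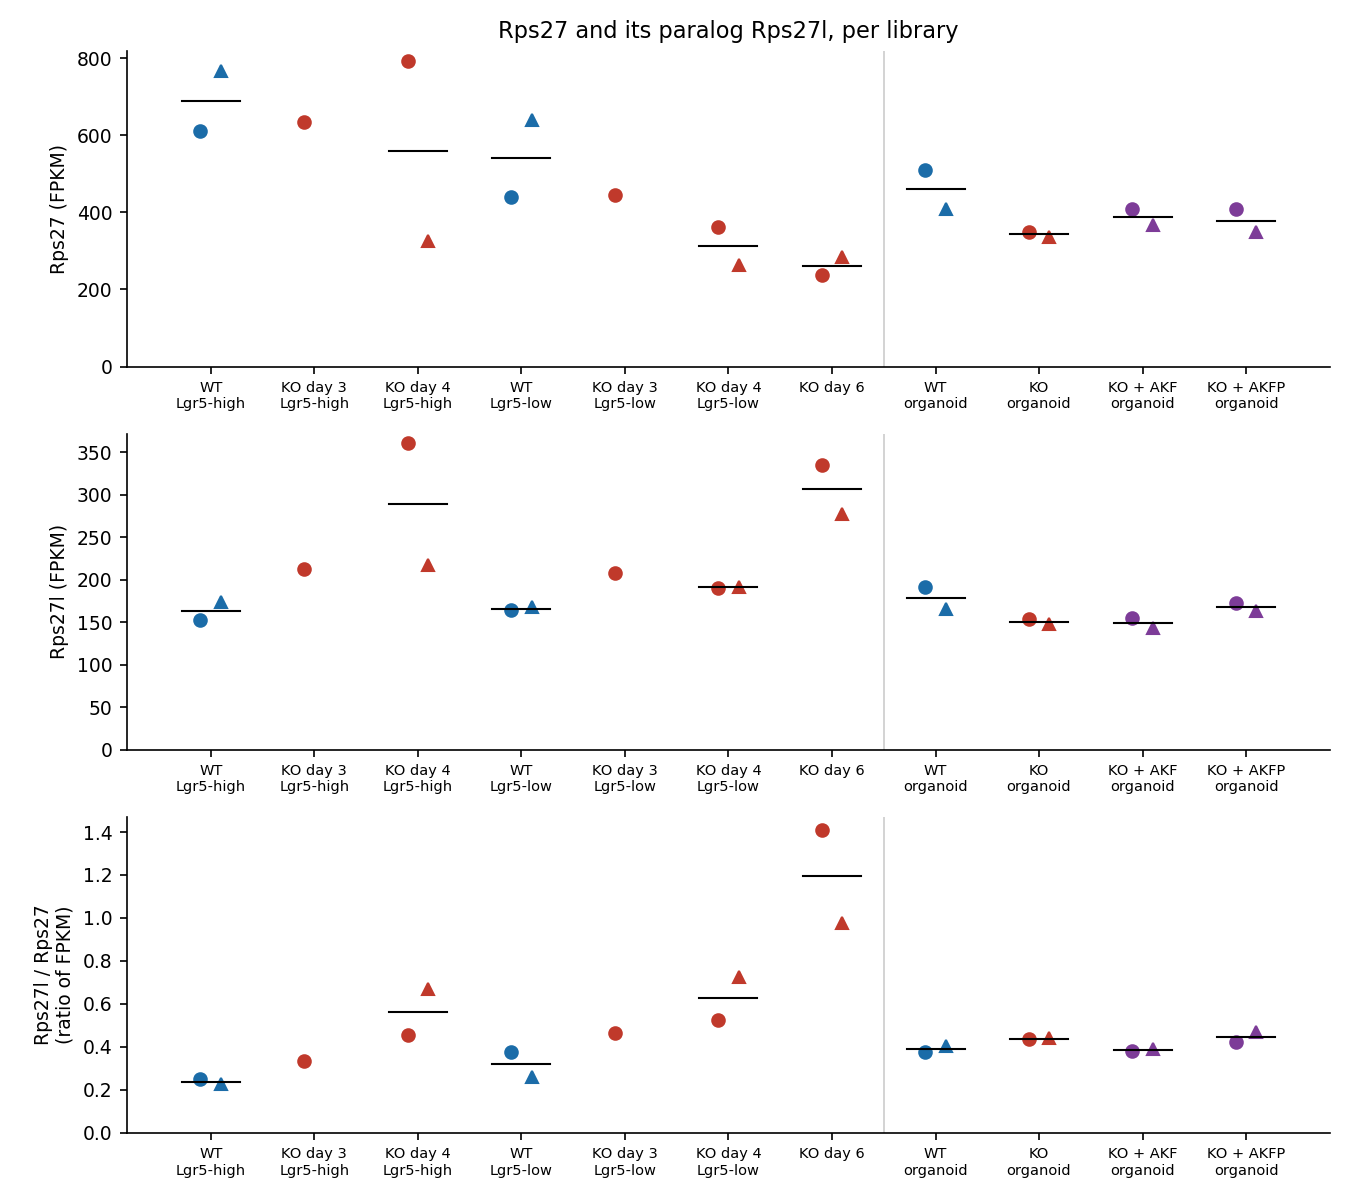
FPKM of *Rps27* (top), FPKM of *Rps27l* (middle) and their ratio (bottom) on the y axes, per library and group (x axis). Circles are first and triangles second libraries, black lines are means of 2, blue is WT, red knockout and purple knockout with AKF or AKFP. The ratio is 0.250 and 0.227 in WT Lgr5-high and 1.41 and 0.978 at day 6, and lies between 0.377 and 0.468 in organoids.

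The coding sequences of the 2 paralogs differ along their length. *Rps27* lies at chr3:90212522-90213651 (minus strand) and *Rps27l* at chr9:66946086-66949516 (plus strand) in GRCm38. Their coding sequences, from the GENCODE M21 transcripts, are both 255 bases long and are printed whole, start to stop codon, with differing bases in capitals, because a shift of one gene against the other rests on them.
Rps27: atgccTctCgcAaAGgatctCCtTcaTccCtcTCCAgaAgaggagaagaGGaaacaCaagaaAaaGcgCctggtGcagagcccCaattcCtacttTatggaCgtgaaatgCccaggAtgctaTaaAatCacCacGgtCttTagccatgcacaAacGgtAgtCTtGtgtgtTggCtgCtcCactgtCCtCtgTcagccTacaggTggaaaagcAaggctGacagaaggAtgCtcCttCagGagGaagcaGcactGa
Rps27l: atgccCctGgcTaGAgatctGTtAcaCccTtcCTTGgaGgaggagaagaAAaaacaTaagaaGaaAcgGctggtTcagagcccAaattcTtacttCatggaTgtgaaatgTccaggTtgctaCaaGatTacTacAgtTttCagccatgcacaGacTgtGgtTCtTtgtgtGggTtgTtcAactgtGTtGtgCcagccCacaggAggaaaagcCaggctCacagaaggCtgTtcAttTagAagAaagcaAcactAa
The sequences differ at 61 bases (76.1% identity), 53 of them at the third base of a codon, and 54 of 85 codons differ. The capitals are spread over the whole length.

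In organoids, few ribosomal protein genes were called between knockout and WT. The median difference from WT was -0.06 (0.01 for all genes), and limma called 1 of 77 genes higher and 1 lower, where 16.7% and 11.5% of all genes were called. *Rps12* rose from 189 and 206 to 266 and 245 FPKM (0.37, SE 0.09, adjusted p = 0.0243), a call lost when any 1 of the 4 libraries was left out and with equal FPKM sums (limma adjusted p = 0.0973). *Rpl17* fell by 1.09 (SE 0.33, adjusted p = 0.0489), while gene and pseudogenes together differed by 0.03. Without 1 library the count ranged from 0 (without either knockout library) to 3. With equal FPKM sums limma called 12 genes lower and none higher, against 1 and 1 on the values as deposited. Of all 12671 genes tested in that setting, 1941 were called lower and 1340 higher. *Rps27l* was at 192 and 166 FPKM in WT organoids and at 153 and 148 in knockout organoids, and *Rplp0* at 1626 and 1545 in WT and 1519 and 1454 in knockout. In both genes the knockout libraries were the lower ones and neither gene passed. With AKF against knockout, limma called 0 of the 77 genes (0.0474% of all genes were called, and 0 of the 77 and 4.6% of all genes had an unadjusted p under 0.05). The median difference was -0.06, and the smallest p-values belonged to *Rpl17* (0.69, SE 0.33, adjusted p = 1) and *Rps20* (-0.12, SE 0.08, adjusted p = 1).

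With AKFP, many ribosomal protein genes were lower than in each of the other organoid groups, and *Rpl39* was higher. Against WT, limma called 33 of 77 genes lower and 2 higher, where 18.8% and 24.6% of all genes were called, with a median difference of -0.31 (0.05 for all genes). Against knockout it called 22 lower and 1 higher (13.2% and 13.2% of all genes), median -0.28, and against AKF 17 lower and 1 higher (12.7% and 12.8%), median -0.25. The 3 comparisons share the AKFP libraries. Against WT, 18 of 31 small subunit genes and 15 of 46 large subunit genes were called lower, with medians of -0.39 and -0.28.

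*Rps19*, known for its mutation in Diamond-Blackfan anaemia, stood at 245 and 199 FPKM in WT organoids, 267 and 222 in knockout, 242 and 221 with AKF and 141 and 122 with AKFP (difference from knockout -0.88, SE 0.14, adjusted p = 0.00733). Both AKFP libraries were lower than the other 6, and the call against knockout held when each of the 4 libraries was left out in turn. *Rps28* stood at 161 and 134 FPKM in WT and 91.1 and 58.6 with AKFP (difference from WT -1.0, SE 0.21, adjusted p = 0.00912). *Rps29* stood at 741 and 586 in WT and 435 and 299 with AKFP (-0.87, SE 0.21, adjusted p = 0.0145). The large subunit gene *Rpl35a* stood at 97.3 and 78.6 in WT and 55.9 and 42.2 with AKFP (-0.84, SE 0.15, adjusted p = 0.00540), a call that held without each of the 4 libraries. In these 4 genes no AKFP library reached the lowest WT library.

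*Rpl39*, a small protein that lines the exit tunnel of the large subunit, went the other way. Its level was 208 and 163 FPKM in WT organoids, 176 and 150.4 in knockout, 194 and 168 with AKF and 279 and 298 with AKFP, and both AKFP libraries were above the other 6. The differences were 0.64 (SE 0.14, adjusted p = 0.0107) from WT, 0.82 (SE 0.14, adjusted p = 0.00937) from knockout and 0.67 (SE 0.14, adjusted p = 0.0172) from AKF. Each call was lost without the second AKFP library (adjusted p 0.0572 against WT and 0.0577 against knockout), and the last also without the first AKFP or the second AKF library. *Rps12*, the other gene called higher against WT, stood at 254 and 233 FPKM with AKFP (0.30, SE 0.09, adjusted p = 0.0338), beside 266 and 245 in knockout organoids without factors. The stalk gene *Rplp2* fell against WT from 362 and 308 to 266 and 216 FPKM (-0.48, SE 0.13, adjusted p = 0.0239), and *Rpl3* fell by 0.27 (SE 0.09, adjusted p = 0.0451). The calls of *Rps12* and *Rpl3* against WT were lost when any 1 of the 4 libraries was left out (adjusted p 0.0503 to 0.162 and 0.0532 to 0.202). Those of *Rplp2* and *Rps29* were lost without the second AKFP or the first WT library (adjusted p up to 0.127 and 0.0828), and that of *Rps28* without the first WT library (0.0561). *Rplp0*, *Rplp1*, *Rpsa*, *Rps6*, *Rps4x*, *Rpl22*, *Rps27* and *Rps27l* were not called in any of the 3 AKFP comparisons. *Rps6* stood at 1108 and 979 FPKM in WT and 884 and 932 with AKFP.

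Among the other genes called lower with AKFP, *Rpl23*, which like *Rpl5* and *Rpl11* is known to bind Mdm2, stood at 362 and 302 FPKM in WT organoids, 324 and 280.0 in knockout, 317 and 283 with AKF and 234 and 187 with AKFP (difference from WT -0.66, SE 0.15, adjusted p = 0.0112). *Rps16* stood at 713 and 642 in WT, 706 and 638 in knockout, 636 and 642 with AKF and 511 and 394 with AKFP (-0.59, SE 0.13, adjusted p = 0.0120). In both genes the AKFP libraries were the lowest of the 8. These and the following were chosen after their values were seen. *Rpl36*, the second most abundant gene of the family, stood at 1806 and 1449.8 in WT, 2376 and 1956 in knockout, 2168 and 1944 with AKF and 1520.4 and 1223 with AKFP, and was called lower against knockout (-0.66, SE 0.17, adjusted p = 0.0299) but not against WT (-0.25, SE 0.17, adjusted p = 0.271). *Rps15* stood at 1467 and 1277 in WT, 1745 and 1508 in knockout, 1584 and 1419 with AKF and 1092 and 943 with AKFP, and was called lower against knockout (-0.68, SE 0.13, adjusted p = 0.0136) and against WT (-0.43, SE 0.13, adjusted p = 0.0339). In both genes the first knockout library was the highest of the 8, the knockout and AKF libraries overlapped, and the second AKFP library was the lowest. *Rpl11* was called lower against WT (-0.39, SE 0.12, adjusted p = 0.0383) and *Rpl5* was not (-0.18, SE 0.10, adjusted p = 0.195).

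The counts depended on single libraries. The share of all genes called with 1 library left out is not given, so counts from those fits show only how far they move. The median against WT was -0.18 without the first WT library, and without the second AKFP library that against knockout was -0.18 and that against AKF -0.16. Against WT the counts ranged from 7 genes without the first WT library and 11 without the second AKFP library to 36 without the second WT library. Against knockout they were 3 without the second AKFP or the first knockout library and 16 without the first AKFP library, and against AKF 1 without the second AKFP or the first AKF library and 11 without the first AKFP library. Equal FPKM sums, which moved the median of all genes by 0.11 against knockout and 0.10 against AKF, gave 3 genes higher and 18 lower against knockout and 7 and 14 against AKF, in place of 1 and 22, and 1 and 17. Of all 12671 genes tested in that setting, 2608 were called higher and 1148 lower against knockout, and 2549 and 1157 against AKF. The median less that of all genes was -0.32 against knockout on the values as deposited and -0.30 with equal sums. With the trend on transcript length taken out it was -0.15, with a median of -0.13 in place of -0.28 and 5 genes higher and 15 lower. Against AKF that setting gave -0.12 in place of -0.29, with 6 higher and 13 lower, and against WT -0.24 in place of -0.36. Of all 12657 genes it called 1571 higher and 1689 lower against knockout, and 1555 and 1725 against AKF. The defensin genes and *Lyz1* held 6.05 and 5.48% of the sum with AKFP and 2.46 to 3.79% in the other organoids. With them left out of the sum the ribosomal protein share was 9.57 and 9.04% with AKFP, still below the 9.75 to 11.6% of the other 6. Enterocyte markers summed to 959 to 1055 FPKM with AKFP and 4200.2 to 4217 in WT, and goblet cell markers to 3068 to 3302 with AKFP and 1517 to 2031 in WT, with every listed gene above 0, and their part in the result was not tested.

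Within the family the AKFP change went with base composition. Coding sequences of the 77 genes ranged in GC content around a median of 52.9%. The 38 genes above it had a median difference between AKFP and knockout of -0.40, with 15 called lower, and the other 39 of -0.05, with 7 lower and *Rpl39* higher. Across the 77 genes, Spearman's rho between the difference and GC content was -0.63, against -0.33 across 10937 protein-coding genes tested and -0.38 across 78 mitochondrial ribosomal protein genes. Against WT rho was -0.31 in the family, -0.10 over all coding genes and 0.17 across the mitochondrial ribosomal protein genes. Between knockout and WT organoids it was 0.49, 0.19 and 0.45 in these sets. The knockout libraries enter this comparison and AKFP against knockout with opposite sign. In AKFP against AKF, which uses neither the WT libraries nor those of knockout without factors, rho was -0.54, -0.32 and -0.28 in these sets. Between 2 libraries of the same group, rho in the family was 0.10 with AKFP, 0.23 with AKF and 0.01 in knockout organoids. It was 0.28 between the day 4 knockout Lgr5-high libraries. Genes are not independent replicates and share the same libraries, so these are descriptions. At day 6 against WT Lgr5-high rho was 0.21 in the family.

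**Figure D5:**
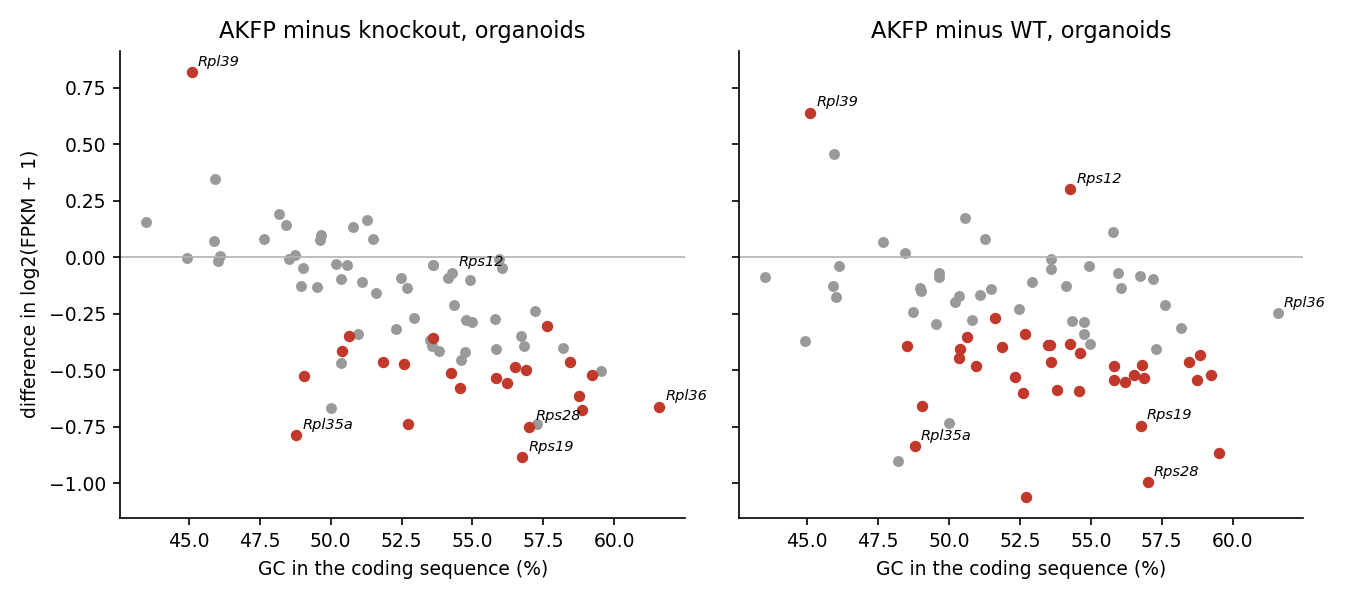
Fitted difference in log2(FPKM + 1) (y axis) of 77 ribosomal protein genes against the GC content of their coding sequence (x axis, percent), for AKFP minus knockout (left) and AKFP minus WT organoids (right). Red points passed limma at an adjusted p under 0.05. On the left the points fall from *Rpl39* at 45.1% GC and a difference of 0.82 toward *Rpl36* at 61.6% GC and -0.66.

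Genes with a C start and a pyrimidine run at a recorded start were set beside the other matched genes. At day 6 against WT Lgr5-high, 13 genes with a C start and a run of at least 5 pyrimidines had a median difference of -0.89 and 4 were called lower, and 44 genes without had -0.84 and 12. Between AKFP and WT the medians were -0.42 and -0.19, with 8 and 16 called lower. The difference between these sets was not tested. The split hangs on the exact recorded start base. The genes without a C start include *Rpl27a* and *Rpl7a*, whose recorded starts are a T that opens runs of 16 and 7 pyrimidines. The sets therefore do not separate mRNAs with a 5' TOP from those that lack it. Of *Rps6*, *Rps27*, *Rps18* and *Rpl15*, whose windows are printed above with a run, each was called lower at day 6 against WT Lgr5-high, and *Rpl38* (-0.50) and *Rpl35a* (-0.78) were not. These 4 are all the called genes among the 13, so the printed windows hold more called genes than their set does. Called lower were 4 of 13 genes with the run and 12 of 44 without, beside 28.6% of the 77 genes. *Rps18* stood there at 352 and 454 FPKM in WT and 176 and 194 at day 6. The genes called lower at day 6 and those called lower with AKFP against WT, 2 comparisons with no library in common, overlapped in 9 genes, which is 40.9% of the first list and 27.3% of the second. Those shares are close to the 42.9% of the 77 genes in the second list and the 28.6% in the first. Over the 12097 genes tested in both, 603 were called lower in both comparisons, 42.4% and 26.6% of the lists. The shared genes of the family included *Rpl3*, *Rpl13a*, *Rpl15*, *Rpl24*, *Rps3*, *Rps13*, *Rps18* and *Rps19*.

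Other parts of the translation machinery were followed with fixed lists. Of 20 translation factors and other 5' TOP mRNAs, 9 were called lower at day 6 against WT Lgr5-high and 0 higher, with a median of -0.77, where 11.9% and 10.1% of all genes were called. The 9 included *Tpt1* (-1.58, limma adjusted p = 0.0155), *Eif4b* (-1.39, limma adjusted p = 0.00610), which stimulates the eIF4A helicase, and the poly(A)-binding protein gene *Pabpc1* (-1.25, limma adjusted p = 0.00683). Against WT Lgr5-low 2 were lower, *Tpt1* and *Eif4b* (5.25% of all genes). With AKFP against WT organoids 8 were lower and 3 higher, the latter *Eif3l*, *Eef2* and *Eef1a1* (18.8% and 24.6% of all genes), with a median of -0.13. Against knockout AKFP had 2 lower and 2 higher (13.2% and 13.2% of all genes), median 0.02. Against AKF it had 1 lower and 2 higher (12.7% and 12.8%), median 0.08. Between knockout and WT organoids 2 were lower and 1 higher (11.5% and 16.7%), near or under the share of all genes. Of 25 genes of ribosome assembly and rRNA synthesis, 9 were called higher in knockout than in WT organoids and none lower, 12 with AKFP against WT and none lower, and 5 at day 6 against WT Lgr5-low and none lower, where 16.7%, 24.6% and 6.22% of all genes were called higher. Against WT Lgr5-high the list had 1 gene higher at day 6, *Bysl*, and 1 lower, *Nop14* (-0.72, limma adjusted p = 0.0465), with a median of -0.12, where 10.1% and 11.9% of all genes were called. *Bysl*, a small subunit assembly factor, was higher in knockout in each setting: 1.31 (limma adjusted p = 0.0275) at day 4 in Lgr5-high, 1.19 (limma adjusted p = 0.0489) at day 4 in Lgr5-low, 1.36 (limma adjusted p = 0.00310) at day 6 against WT Lgr5-high and 0.88 (limma adjusted p = 0.000715) in organoids. *Ncl*, encoding nucleolin, was higher in knockout organoids (0.69, limma adjusted p = 0.00111) and with AKFP against WT (1.07, limma adjusted p = 0.000156), where the family's median was -0.31.

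The 78 mitochondrial ribosomal protein genes, which build the separate ribosome of the mitochondrion, gave other values. Their median was 0.04 at day 6 against WT Lgr5-high, with 8 called higher and 1 lower, where 10.1% and 11.9% of all genes were called. It was 0.51 at day 4 in Lgr5-high, with 2 called higher (1.05% of all genes were called), and 0.00 at day 4 in Lgr5-low, with none called (0.473%). In knockout against WT organoids 31 were higher and 5 lower (16.7% and 11.5% of all genes), and with AKFP against WT 32 and 6 (24.6% and 18.8%). Among 13 regulators of translation, *Eif4ebp1*, whose protein blocks the cap-binding factor eIF4E, was higher at day 6 against WT Lgr5-high (1.59, limma adjusted p = 0.00675) and in knockout organoids (0.71, limma adjusted p = 0.00272), and *Mycn* was lower at day 6 (against WT Lgr5-high -1.20, limma adjusted p = 0.00530). The list had 1 gene called higher and 1 lower in that comparison, and 3 higher and 1 lower in knockout against WT organoids, where 16.7% and 11.5% of all genes were called. Of the 7 ribosomal protein genes outside the symbol rule, 1 was called lower at day 6 against WT Lgr5-high, the paralog *Rpl22l1* (-1.24, limma adjusted p = 0.0251), and 3 were lower with AKFP against WT: *Fau* (-0.74, limma adjusted p = 0.00579), which encodes a small subunit protein fused to a ubiquitin-like domain, *Rpl22l1* and *Rack1*. In the other direction, *Rpl36al* was higher in knockout than in WT organoids (0.55, limma adjusted p = 0.0151) and *Rpl7l1* higher with AKFP than in knockout (0.33, limma adjusted p = 0.0392), where *Fau* was lower. Of all genes, 11.9% were called lower at day 6, 18.8% lower with AKFP against WT, 16.7% higher in knockout organoids and 13.2% higher with AKFP against knockout.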

How the data were processed

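RNA libraries were prepared from total RNA (RNeasy) with the NEBNext Ultra kit, per the labels' protocols. The submitters' processing notes name HISAT2 2.1.0, StringTie 1.3.3b and the build mm10, without saying what each did. The authors deposited 1 FPKM table per tissue library and 1 table of the organoid libraries, whose header names no unit and whose values were taken as FPKM. Depth is not given with FPKM, and a search for steps of whole fragments found none, so no counting interval was computed. Genes were matched to GENCODE M21 by Ensembl identifier. Values were tested as log2(FPKM + 1) with limma 3.58.1 (R 4.3.3; lmFit, eBayes with trend, two-sided, Benjamini-Hochberg adjustment over all genes tested, calls at an adjusted p under 0.05), 1 fit for 10 tissue libraries (12899 genes) and 1 for 8 organoid libraries (12657 genes), after keeping genes with at least 1 FPKM in at least 2 libraries. The 2 sets were not tested against each other. The day 3 libraries, 1 per gate, were left out of the fits. All 77 genes tested reached 1 FPKM in every library, so none passed through 1 group alone. Fold changes on this scale understate those of low genes. The fits were checked on simulated data. In each comparison the named genes were the 4 largest rises and 4 largest falls among called genes without overlap, or else the 2 smallest p-values, beside a fixed list of genes and the highest, lowest, steadiest and least steady ones. Some results under this rule are not reported here. The members, lists and rules were chosen with earlier results of these data known. The alternatives were another pseudocount (0.1), no filter, other scalings, a length correction, fits of the compared groups alone, a block on replicate number and leaving out each library.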

Additional observations from a re-analysis of the deposited data

Results flagged for a closer look

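Of the named genes, 5 had knockout changes in opposite directions in different settings, with no overlap between knockout and WT libraries in either setting. The share of all genes with such opposite changes is not given. In Lgr5-low cells at day 4, both knockout libraries lay below both WT libraries in 65 of the 77 genes and in 24.3% of all genes. The falls of *Rpl36*, *Rps15* and *Rps12* there were thus shared by most of the family. On the log2(FPKM + 1) scale, *Rpl29* differed from WT by -2.75 in Lgr5-high cells at day 4, by 1.20 in Lgr5-low cells at day 4 and by 0.33 in organoids. Between the 2 gates the difference of these changes did not pass limma (adjusted p = 0.963). *Rps27l* differed by 0.78 in Lgr5-high and 0.20 in Lgr5-low cells at day 4 and by -0.24 in organoids. *Rpl36* differed by -0.50 in Lgr5-low cells at day 4 and by 0.41 in organoids, *Rps15* by -0.43 and 0.25, and *Rps12* by -0.34 and 0.37. Only the *Rps12* rise in organoids passed limma (adjusted p = 0.0243). The differences between tissue and organoids were not tested, because the 2 sets of tables were fitted separately. Groups of 2 libraries allow no test for a library far from its group.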

How the results depend on the processing

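With 2 libraries a group, single libraries decide many counts, and with 1 library left out the lone one is assumed to vary like the other groups. Leaving out each library, the calls ranged from 0 to 2 for day 4 in Lgr5-high (median change -0.47 to 0.46), from 0 to 68 between the day 4 knockout gates, from 0 to 4 for day 6 against WT Lgr5-high (-0.92 to -0.70), from 0 to 1 for day 6 against WT Lgr5-low (-0.51 to -0.33), and from 0 to 3 for organoid knockout. They ranged from 3 to 16 for AKFP against knockout, from 1 to 11 against AKF (-0.32 to -0.16) and from 7 to 36 against WT. The median difference between the gates' changes ranged from 0.043 to 0.95. Without a filter there were 4 calls for day 6 against WT Lgr5-high, 0 for organoid knockout, 6 for AKFP against knockout, 4 against AKF and 16 against WT, fewer than the 23, 2, 23, 18 and 35 with it. Equal FPKM sums gave 52 calls and a median of -1.21 for day 6 against WT Lgr5-high, a median of -0.74 against WT Lgr5-low, 12 calls for organoid knockout and a median of -0.12 for AKFP against AKF. Of all genes, equal sums gave 513 higher and 1297 lower of 12996 for day 6 against WT Lgr5-high. For organoid knockout they gave 1340 higher and 1941 lower of 12671. This scaling moved the median of all genes by -0.21 for day 6 against WT Lgr5-low and by -0.11 for day 4 in Lgr5-high. Median-of-ratios scaling gave 4 calls and -0.64 for day 6 against WT Lgr5-high and 1 call for organoid knockout. With the trend on transcript length taken out, the values were -0.68 for day 6 against WT Lgr5-high, 1 call against WT Lgr5-low, 9 calls for organoid knockout and -0.11 for AKFP against AKF. Fits of the compared groups alone gave 44 calls for day 6 against WT Lgr5-high, 1 against WT Lgr5-low, 1 for organoid knockout and 9 for AKFP against AKF. Of all genes, these fits called 1397 higher and 1513 lower of 12184 for day 6 against WT Lgr5-high. For AKFP against AKF they called 786 higher and 1014 lower of 12234. The cause was not tested. In percentage points, the share of day 6 less WT Lgr5-high went from -4.63 to -5.64 with protein-coding rows only in the sum, that of day 6 less WT Lgr5-low from -2.18 to -2.80, and to -2.83 without mitochondrially encoded genes and -1.39 without defensins and *Lyz1*. With protein-coding rows only, AKFP less knockout went from -1.07 to -2.03, AKFP less AKF from -0.80 to -1.63 and AKFP less WT from -1.89 to -2.50. Without *Gm23935*, an alternative chosen after seeing the data, AKFP less AKF was -1.16. Some medians and shares near 0 changed sign with 1 library left out: day 4 in Lgr5-high (median -0.02 to 0.46 without the second knockout and 0.07 without the second WT library, share from -0.66 percentage points to 0.85 and 0.14), organoid knockout against WT (-0.06 to 0.03 without the second knockout and 0.04 without the first WT library) and AKF against knockout (-0.06 to 0.0049 without the second AKF and 0.03 without the first knockout library, share from -0.27 to 0.12 without the latter). The day 3 Lgr5-high median went from -0.06 to 0.0056 with equal FPKM sums.

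The libraries of different groups share replicate numbers, and nothing in the labels says that a number marks a shared animal or day. Correlations of same-numbered libraries' deviations from their group means ran from 0.02 to 0.52 over 10 pairs of tissue groups and from -0.04 to 0.09 over 6 pairs of organoid groups. They were above 0.1 in 7 of the 10 tissue pairs and in 0 of the 6 organoid pairs. The numbers were not treated as pairs in either set, because not every pair was above 0.1. Whether a number marks a shared animal or day stays unsettled. In the family, the first library lay above the second in 70, 75, 69 and 52 of 77 genes in WT, knockout, AKF and AKFP organoids. The median differences were 0.22, 0.17, 0.12 and 0.13, against -0.03, -0.01, -0.04 and 0.0008 over all genes. In tissue the counts were 16 in WT Lgr5-high, 29 in WT Lgr5-low, 77 and 71 in the day 4 gates and 58 at day 6. With the replicate block limma called 32 genes for day 6 against WT Lgr5-high (23 without it) and 45 for AKFP against WT (35 without it), and there was 1 call for day 4 in Lgr5-high, 2 between the day 4 knockout gates, 1 for day 6 against WT Lgr5-low, 10 for organoid knockout, 38 for AKFP against knockout and 36 for AKFP against AKF. Of all 12899 genes the block gave 1569 higher and 1992 lower for day 6 against WT Lgr5-high. Of all 12657 genes it gave 2146 and 1488 for organoid knockout. With AKFP it gave 3203 and 2442 against WT, 1869 and 1761 against knockout, and 1810 and 1694 against AKF. Of 1823 values of named genes under the alternatives, 1689 stayed on their side of the threshold, 86 were no longer called and 48 became called. The sign turned in 82 values, 60 of them with 1 library left out, and 0 of the 82 were called with or without the change. Without a filter the calls of *Rps28* against knockout and AKF, *Rps29*, *Rplp2*, *Rpl3* and *Rps12* against WT and *Rpl39* against AKF were among those lost in AKFP organoids.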
